A study of Mus musculus with 23 samples.

Results

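The thyroid hormone receptor genes Thra and Thrb were followed with 7 genes of the proteins that act with them, namely the retinoid X receptor genes Rxra and Rxrb, the corepressor genes Ncor1 and Hr, and the coactivator genes Ncoa1, Ncoa2 and Med1. These 9 genes were chosen by name, and their identifiers were found through the mouse annotation GENCODE M21 of the build GRCm38. They are 9 of 38293 genes in the count tables, and all 9 were among the 16087 genes with enough counts to be tested. Levels come from 23 RNA-seq libraries of primary cortical astrocytes, the main supporting glia of the brain, grown from the neocortex of mice at postnatal day 3, whose hybrid background combined BALB/c+C57BL/6 with 129/OLa+129/Sv+. The cells grew for 7 days, and per the labels the cultures were over 95% astrocytes. Every group then spent 24 h in 0.1% serum deprived of thyroid hormone. The groups were 24 h T3 (3 libraries), 24 h control (4), 6 h CHX plus T3 (4), 6 h CHX (4), 6 h T3 (4) and 6 h control (4). T3, the active thyroid hormone triiodothyronine, was given at 10 nM, and controls received none. CHX, read here as cycloheximide, which blocks protein synthesis, was given at 8 µg/ml, starting 30 min before T3. Whether replicates were separate cultures is not stated in any label. The p-values here set differences only against the spread of libraries within groups, estimated over all 23 libraries. That spread may be technical.

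Thyroid hormone receptors sit on DNA as partners of retinoid X receptors with or without hormone. Without hormone they hold a corepressor complex with a histone deacetylase, built on NCoR proteins, and when T3 binds, that complex leaves and coactivators that acetylate histones and link to RNA polymerase take its place. In the brain Thra gives most of the receptor and Thrb is more restricted, and Hr, the hairless gene, encodes a corepressor of these receptors that is also a well-known gene raised by T3 in brain tissue. Levels are given as CPM, a gene's reads relative to the size of its library, with sizes adjusted between libraries by TMM scaling. They cover the gene as a whole, so the hormone-binding and other variants that Thra makes were not separated.

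Thra (ENSMUSG00000058756) lies on chromosome 11 from 98740638 to 98769006 on the plus strand, and Thrb (ENSMUSG00000021779) on chromosome 14 from 17660261 to 18038090 on the plus strand, both in GRCm38. Rxra (ENSMUSG00000015846, chromosome 2, 27676440 to 27762957) and Rxrb (ENSMUSG00000039656, chromosome 17, 34031812 to 34038399) are also on the plus strand. Ncor1 (ENSMUSG00000018501) spans 62316426 to 62458541 on the minus strand of chromosome 11, and Hr (ENSMUSG00000022096) spans 70552212 to 70573548 on the plus strand of chromosome 14. Ncoa1 (ENSMUSG00000020647, chromosome 12, 4247362 to 4477182), Ncoa2 (ENSMUSG00000005886, chromosome 1, 13139105 to 13374083) and Med1 (ENSMUSG00000018160, chromosome 11, 98152154 to 98193293) are on the minus strand. Of the 4614 exon bases of Thra, 263 (5.7%) at its 3′ end are shared with Nr1d1, which runs the other way. The library kit marks no strand, so reads from those bases cannot be told apart. Ncor1 shares 83 of its 12811 exon bases with Ttc19 and Pigl.

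RefSeq promoter windows of 250 bases before to 50 after a start site (GRCm38.p6) were at hand for 6 of the 9 genes, 10 windows in all. None was at hand for Thra, Hr and Ncoa2. Both windows of Thrb are shown because it was the only one of these 6 genes that passed the test for T3 in all 3 settings described below. Capitals mark AGGTCA, the core element that thyroid hormone and retinoid X receptors recognise, searched on both strands.
Thrb upstream start, chr14:17660710-17661009, plus strand: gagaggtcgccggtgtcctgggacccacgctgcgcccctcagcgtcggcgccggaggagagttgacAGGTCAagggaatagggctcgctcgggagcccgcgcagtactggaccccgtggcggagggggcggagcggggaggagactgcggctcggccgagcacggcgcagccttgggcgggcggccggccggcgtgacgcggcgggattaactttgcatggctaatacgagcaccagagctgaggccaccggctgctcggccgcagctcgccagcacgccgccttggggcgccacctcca
Thrb downstream start, chr14:17981394-17981693, plus strand: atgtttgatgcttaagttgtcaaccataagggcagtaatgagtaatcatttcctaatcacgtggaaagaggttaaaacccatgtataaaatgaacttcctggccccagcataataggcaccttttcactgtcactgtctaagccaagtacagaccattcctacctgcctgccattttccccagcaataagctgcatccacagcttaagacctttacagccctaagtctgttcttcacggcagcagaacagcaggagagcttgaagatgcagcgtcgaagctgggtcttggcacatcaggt
The upstream window holds 1 AGGTCA, beginning at position 67 of the window, and the downstream window holds 0. Among the other windows, 1 of the 2 of Rxra holds 2 matches (1 as AGGTCA and 1 as its reverse complement). Those of Rxrb, Ncor1, Ncoa1 and Med1 hold 0. AGGTCA occurs in 16.3% of all 32851 windows of this length. A pair of such elements read the same way with 4 bases between them, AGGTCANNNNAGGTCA, occurs in 5 windows (0.0152%), and none belongs to these genes.

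Libraries held 13843040 to 22997873 gene counts. Of 12 astrocyte markers all were measured, with Gfap at 2321 to 5627 CPM and S100b low at 2.05 to 8.05 CPM. The 12 microglia markers together reached 33.3 to 126 CPM, the highest sums being in 24 h control replicates 2 and 4. Mog, Mag, Slc17a6, Nefl and Cldn5, markers of oligodendrocytes, neurons and vessels, were at 0 in at least 1 library. Other markers of those cell types were far higher, with Olig1 at 273.7 to 599.7 CPM, Map2 at 283.6 to 407.5 and Acta2 at 1175 to 2736. Genes with long transcripts stood apart in 24 h T3 replicate 1, where the median gene over 10 kb of exons was at -0.43 in log2 CPM against the mean of its 2 partners and the median gene under 2 kb was at 0.35. The same slope was milder in 6 h T3 replicate 2 and had the opposite sign in 6 h CHX plus T3 replicate 3. In a bulk library, fewer cells of a type and less RNA per cell cannot be told apart.

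**Figure D1:**
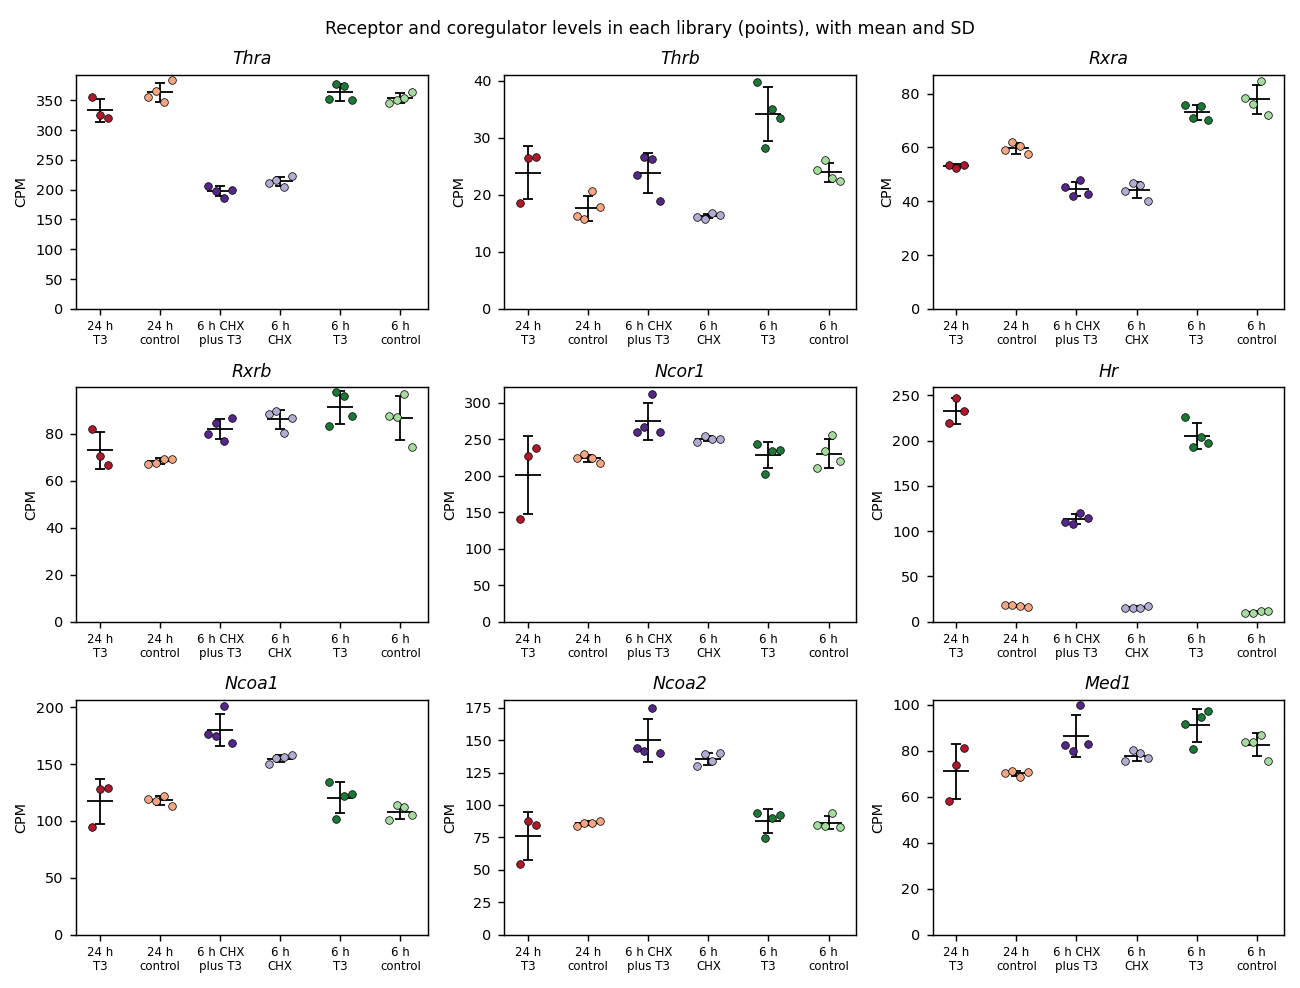
CPM of each gene (y axes from 0) in every library, by group. Points are libraries, the dash is the mean and the bars are 1 SD; Hr separates the 3 T3 groups from the 3 groups without T3, Thra and Rxra are lower in both CHX groups, and 24 h T3 replicate 1 is the low point for Ncor1, Ncoa1, Ncoa2 and Med1.

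Thra was the most abundant of the 9 per length in all 6 groups, and Hr changed its place most. Per kilobase of exon, Thra had 72.3 ± 4.16 CPM in 24 h T3, 78.7 ± 3.38 in 24 h control, 42.8 ± 1.92 in 6 h CHX plus T3, 46.4 ± 1.65 in 6 h CHX, 78.8 ± 3.06 in 6 h T3 and 76.7 ± 1.79 in 6 h control (SD, n = 3 or 4). On the same scale Thrb lay between 2.20 ± 0.06 CPM per kb in 6 h CHX and 4.62 ± 0.65 in 6 h T3, and was 8th or 9th of 9 in every group. Hr was 2nd in 24 h T3 with 33.6 ± 2.01 CPM per kb and 2nd in 6 h T3 with 29.7 ± 2.13, but 5th in 6 h CHX plus T3 with 16.3 ± 0.78. Without T3 it was 8th in 24 h control (2.54 ± 0.15) and in 6 h CHX (2.27 ± 0.17) and 9th in 6 h control (1.56 ± 0.19).

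In 6 h control the order per length ran Thra, Rxrb, Ncor1, Rxra, Ncoa1, Med1, Ncoa2, Thrb and Hr. There the ranges of Rxrb (21.8 ± 2.36 CPM per kb) and Ncor1 (17.9 ± 1.54) overlapped, as did those of Rxra (14.2 ± 0.99) and Ncoa1 (12.6 ± 0.70), and the other neighbours did not. In 6 h CHX Rxra came 7th with 8.09 ± 0.55 CPM per kb, and its range overlapped that of Ncoa2 (8.67 ± 0.30), which in turn overlapped that of Med1 (8.89 ± 0.24). Hr and Thrb overlapped at the bottom of the order in 6 h CHX and in 24 h control.

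**Figure D2:**
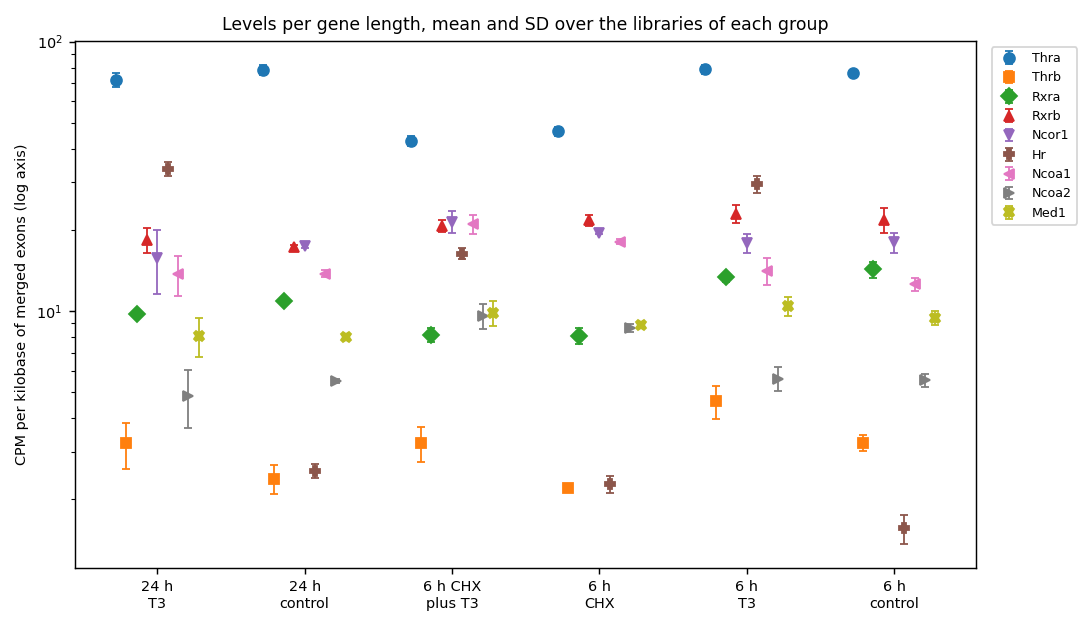
Mean CPM per kilobase of merged exons (log axis) for the 9 genes in each group, with bars of 1 SD. Thra is on top throughout, and Hr moves between the bottom without T3 (1.56 to 2.54) and 16.3 to 33.6 with T3.

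Of the 2 receptor genes, Thrb was higher with T3 in each of 3 settings, with calls that single libraries could undo, and Thra passed the test in none. At 6 h Thrb had 39.9, 28.3, 35.1 and 33.5 CPM in T3 libraries, against 24.4, 26.2, 22.9 and 22.5 CPM in controls. Every T3 library was above every control. The log2 change was 0.51 ± 0.12 (SE), a 1.43-fold rise, with an adjusted p of 0.0119 in edgeR's quasi-likelihood test with Benjamini-Hochberg adjustment, which is the test behind every adjusted p here unless another is named. Without 6 h T3 replicate 1, the highest library, the adjusted p was 0.0628. All 8 libraries of this comparison came from lane 5.

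Under CHX, Thrb had 23.5, 26.7, 26.2 and 18.9 CPM in 6 h CHX plus T3, against 16.1, 15.8, 16.8 and 16.5 CPM in 6 h CHX. The groups did not overlap. The log2 change was 0.55 ± 0.12, with an adjusted p of 0.0174. All CHX plus T3 libraries were on lane 6 and 3 of the 4 CHX libraries on lane 5; the CHX library on lane 6, replicate 4, had 16.5 CPM, also below all CHX plus T3 libraries, and with lane as a covariate the change was 0.53 ± 0.20 with an adjusted p of 0.164. Leaving out any of CHX replicates 1, 2 and 4 or CHX plus T3 replicates 2 and 3 also took the adjusted p over 0.05, to between 0.052 and 0.088.

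After 24 h Thrb had 18.5, 26.5 and 26.6 CPM in T3 libraries, against 16.2, 15.8, 20.7 and 17.9 CPM in controls. The lowest T3 library, replicate 1, lay below the highest control. The log2 change was 0.44 ± 0.13 with an adjusted p of 0.039, and 0.59 ± 0.12 with an adjusted p of 0.00289 without replicate 1. Without both 24 h control replicates that stood apart in microglia markers it was 0.36 ± 0.16 with an adjusted p of 0.284, and without T3 replicate 2 or 3 the adjusted p was 0.136 and 0.123. Leaving out control replicate 1, 2 or 4 put it at 0.101, 0.153 and 0.071, lane as a covariate at 0.129 and a fit of the compared groups alone at 0.218. In all, the 24 h call was lost under 10 of 17 alternatives, and the log2 change was 0.36 to 0.59 over those 17. No difference between the 3 T3 effects on Thrb passed the test: the effect with CHX minus that without differed by 0.04 (95% interval -0.32 to 0.40), and the effect at 24 h minus that at 6 h by -0.07 (-0.44 to 0.30), with adjusted p of 0.97 and 0.87.

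Thra, the other receptor gene, had 353, 377, 374 and 350 CPM in 6 h T3 libraries and 345, 351, 354 and 365 CPM in 6 h controls. The groups overlapped, and the 95% interval of the log2 change was -0.06 to 0.14. In 24 h T3 libraries it had 356, 325 and 320 CPM, and 356, 366, 347 and 384 CPM in 24 h controls. The change there was -0.12 ± 0.05 with an adjusted p of 0.168, and it was of the same size with CHX (-0.12 ± 0.05, adjusted p = 0.311). Thrb counts as a share of Thrb plus Thra per length averaged 4.30% in 24 h T3 and 2.95% in 24 h control, 7.01% in 6 h CHX plus T3 and 4.53% in 6 h CHX, and 5.55% in 6 h T3 and 4.06% in 6 h control.

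T3 passed the test for 2 of the 9 genes at 6 h, Thrb and Hr, both higher, where 3.77% of all genes tested were called (2.61% higher). The same 2 genes were called at 24 h, where 7.09% of all genes were called (4.41% higher), and with CHX, where 1.29% were (1.16% higher). The median log2 change of the 9 genes was 0.07 at 6 h, -0.01 at 24 h and 0.15 with CHX, beside 0.00, 0.00 and -0.01 for all genes tested. Groups that did not overlap were seen for 2 of the 9 genes at 6 h, Thrb and Hr, beside 11.5% of all genes. The 3 comparisons have no library in common.

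**Figure D3:**
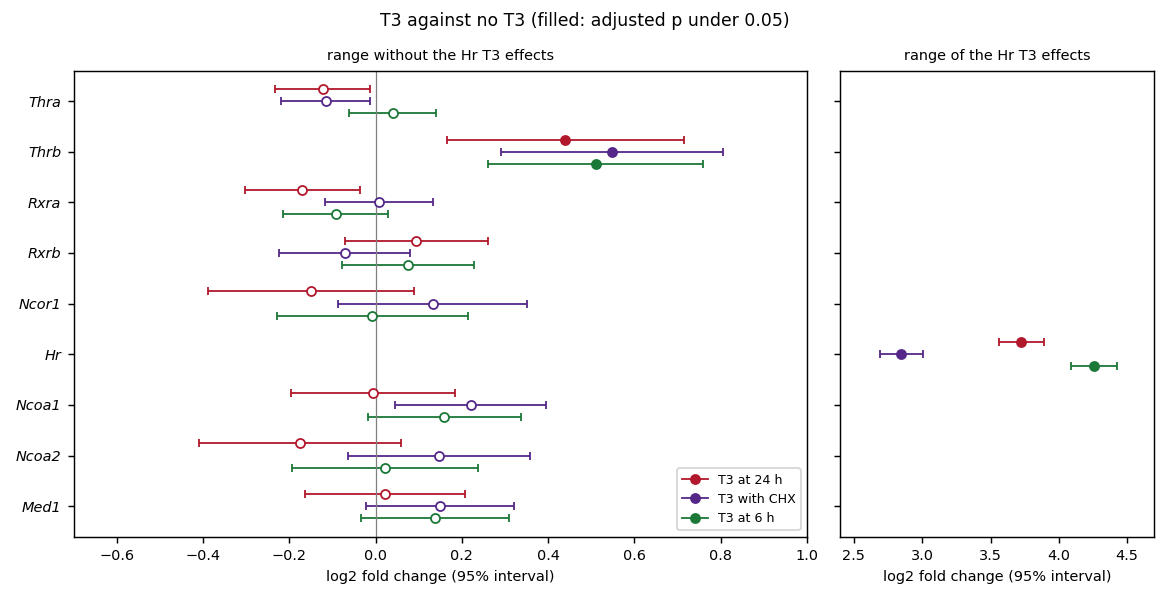
Log2 fold change of T3 over no T3 for the 9 genes, with 95% intervals, at 24 h, with CHX and at 6 h; filled points have an adjusted p under 0.05, and Hr is on the right panel because of its size. Thrb (0.44 to 0.55) and Hr (2.85 to 4.26) are filled in all 3 settings and the other 7 genes in none.

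Hr was the member that moved most with T3. At 6 h it had 226, 193, 204 and 197 CPM in T3 libraries, against 9.34, 10.0, 11.5 and 12.2 CPM in controls. All T3 libraries were far above all controls. This was a 19.1-fold rise (log2 4.26 ± 0.08, adjusted p = 3.4e-22). At 24 h it had 219, 247 and 232 CPM in T3 libraries, against 18.8, 18.1, 16.8 and 16.7 CPM in controls. The rise was 13.2-fold (log2 3.73 ± 0.08, adjusted p = 4.12e-21).

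In the CHX arm Hr also rose with T3. It had 110, 108, 120 and 115 CPM in 6 h CHX plus T3, against 15.6, 14.9, 15.0 and 17.4 CPM in 6 h CHX. The change was 7.20-fold (log2 2.85 ± 0.08, adjusted p = 8.71e-19). The effect with CHX was smaller than that without by 1.41 ± 0.11 in log2 (adjusted p = 1.36e-08), and Hr was the only one of the 9 genes whose T3 effect differed there. Of all genes tested, 1.22% differed and 0.634% had a lower effect with CHX. Both ends of the comparison differed: Hr was lower in CHX plus T3 than in T3 alone (log2 -0.86 ± 0.07) and higher in CHX than in control (0.55 ± 0.08).

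The T3 effect on Hr at 24 h was 0.53 ± 0.11 smaller in log2 than at 6 h (adjusted p = 0.0159), the only such difference among the 9 genes beside 0.839% of all genes (0.298% with a lower effect at 24 h). The controls differed more between the times than the treated cells: Hr was 0.71 ± 0.08 higher in log2 in 24 h than in 6 h control and 0.18 ± 0.07 higher in 24 h than in 6 h T3. Leaving out 6 h control replicate 1 or 2 put the adjusted p at 0.0567 and 0.0553, and leaving out both 24 h control replicates that stood apart put it at 0.0741. Times and lanes coincide for most libraries, so the 6 h and 24 h levels cannot be told apart from lane.

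The retinoid X receptors, which pair with the T3 receptors, did not pass the test for T3 in any setting. Rxra had 75.6, 70.9, 75.3 and 70.2 CPM in 6 h T3 and 78.3, 76.3, 84.8 and 71.9 CPM in 6 h control, with overlapping groups (log2 -0.09, 95% interval -0.21 to 0.03). At 24 h it had 53.4, 52.4 and 53.4 CPM in T3 libraries, against 59.0, 62.0, 60.4 and 57.4 CPM in controls. These groups did not overlap, as for 15.1% of all genes, and the change of -0.17 ± 0.06 had an adjusted p of 0.11. Rxrb had group means of 73.1 ± 7.85 CPM in 24 h T3 and 68.3 ± 1.20 in 24 h control, 82.1 ± 4.41 in 6 h CHX plus T3 and 86.3 ± 4.04 in 6 h CHX, and 91.3 ± 6.90 in 6 h T3 and 86.6 ± 9.37 in 6 h control (SD). Its groups overlapped in each pair.

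Ncor1, the scaffold of the deacetylase corepressor, and the coactivator genes Ncoa1, Ncoa2 and Med1 were not called for T3 either. At 24 h Ncor1 had 140, 227 and 238 CPM in T3 libraries and 224, 229, 225 and 217 CPM in controls. T3 replicate 1, the library with low counts for long genes, lay below the control range and replicate 3 just above it. With it the log2 change of Ncor1 was -0.15 ± 0.11, and without it 0.05 ± 0.08. Ncoa2, with 15642 exon bases the longest of the 9, had 54.8, 88.0 and 84.8 CPM in 24 h T3 and 84.0, 86.0, 86.3 and 87.6 CPM in 24 h control, and its change was -0.18 ± 0.11 with replicate 1 and 0.01 ± 0.08 without it.

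In log2 against the mean of its 2 partners, that library was at -0.73 for Ncor1, -0.66 for Ncoa2, -0.52 for Thrb, -0.45 for Ncoa1, -0.42 for Med1, -0.13 for Hr, 0.01 for Rxra, 0.14 for Thra and 0.25 for Rxrb, whose exons (3973 bases) are the shortest of the 9. Thrb (7403 bases) was lower than the longer Ncoa1 (8576) and Med1 (8753), and further down than Hr (6919) and the median gene of 6 to 8 kb (-0.18). Thrb had 294 counts in that library, against 516 and 632 in replicates 2 and 3. Why Thrb lay lower was not tested. The fit was repeated after the trends with length and GC content were removed together from each library. With that, the 24 h T3 changes of Ncor1, Ncoa1, Ncoa2 and Med1 were -0.09, 0.04, -0.11 and 0.07, and none was called. Before removal they were -0.15, -0.01, -0.18 and 0.02, also uncalled. The part of length alone in the differences between groups was not tested.

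**Figure D4:**
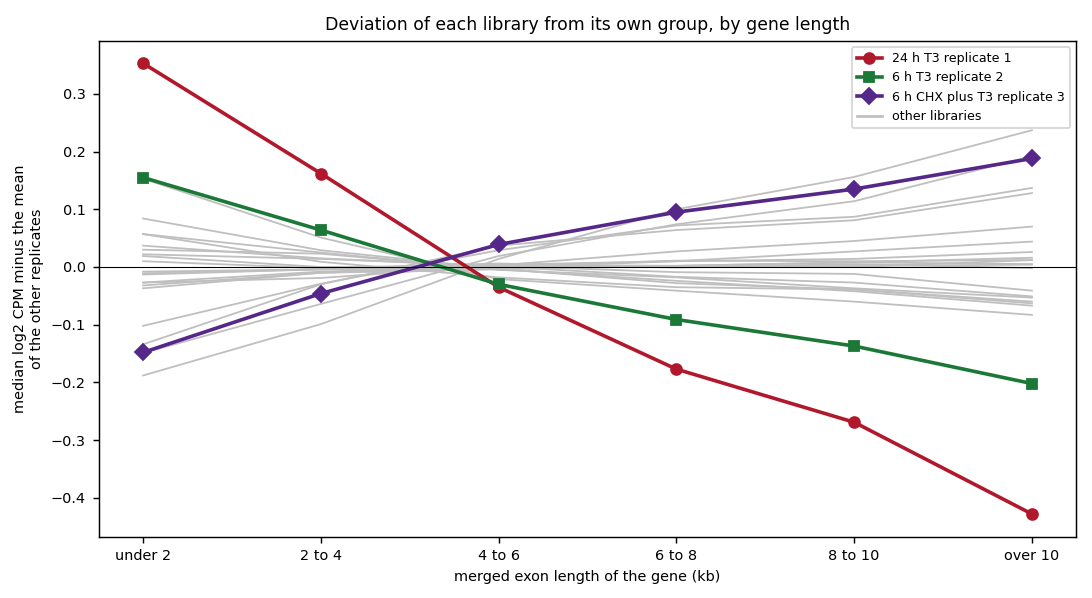
Median log2 CPM of all tested genes in a library minus the mean of the other replicates of its group (y axis), by exon length of the gene (x axis, kb). The 24 h T3 replicate 1 line runs from 0.35 under 2 kb to -0.43 over 10 kb; the grey lines that rise most on the right include its partners, whose comparison mean contains it.

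Under CHX, all libraries with T3 lay above all libraries without it for Ncor1, Ncoa1 and Ncoa2, but none of these changes passed the test. Ncoa1 had 177, 175, 201 and 169 CPM in 6 h CHX plus T3, against 150, 155, 156 and 158 CPM in 6 h CHX. With Thrb and Hr that made 5 of 9 genes whose groups did not overlap, beside 12.3% of all genes. The change of Ncoa1 was 0.22 ± 0.08 (adjusted p = 0.253, and 0.0386 in a fit of the compared groups alone), of Ncoa2 0.15 ± 0.10 (0.554) and of Ncor1 0.13 ± 0.10 (0.609). Replicate 3 of CHX plus T3, the library in which long genes were high, was the top library for Ncor1, Ncoa1, Ncoa2 and Med1.

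CHX itself changed 6 of the 9 genes after 6 h without T3, in a setting where 67.5% of all genes were called (37% higher and 30.6% lower), so a count of 6 is near what all genes show. The receptors Thra and Thrb and the partner Rxra fell, and the corepressor Hr and the coactivators Ncoa1 and Ncoa2 rose. Falls and rises here are relative to the other genes of a library. A change in RNA per cell common to all genes would not show in CPM. Thra had 212, 217, 205 and 223 CPM in CHX libraries, against 345, 351, 354 and 365 CPM in controls. The groups lay far apart, and the log2 change was -0.72 ± 0.05 (adjusted p = 1.86e-12). Rxra had 44.0, 46.6, 46.1 and 40.0 CPM in CHX libraries, against 78.3, 76.3, 84.8 and 71.9 CPM in controls. It fell by 0.82 ± 0.06 (adjusted p = 6.92e-12), and Thrb fell by 0.56 ± 0.12 (adjusted p = 0.000293).

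The partner Rxrb did not follow Rxra. It had 88.5, 89.7, 80.6 and 86.6 CPM with CHX and 87.7, 87.4, 97.0 and 74.2 CPM without, and the 95% interval of its log2 change was -0.16 to 0.15. Rxrb as a share of Rxrb plus Rxra per length was 72.9 ± 1.77% in 6 h CHX and 60.4 ± 1.17% in 6 h control (SD, n = 4 each). Once the trend with length and GC content was removed, Rxrb was higher with CHX, by 0.13 ± 0.05 (adjusted p = 0.0211).

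Ncoa2 had 130, 139, 134 and 140 CPM in 6 h CHX, against 84.6, 83.9, 93.7 and 83.2 CPM in 6 h control. The groups did not overlap, and the rise was 0.65 ± 0.10 (adjusted p = 4.2e-06). Ncoa1, which like Ncoa2 encodes a steroid receptor coactivator of the p160 family, rose by 0.52 ± 0.08 (adjusted p = 6.35e-06), and Hr by 0.55 ± 0.08 (adjusted p = 3.37e-06). Ncor1 (0.12 ± 0.10) and Med1 (-0.09 ± 0.08) were not called, though Med1 was at -0.17 with an adjusted p of 0.00283 once the trend with length and GC content was removed. These values share the 6 h control libraries with T3 at 6 h and the CHX libraries with T3 under CHX.

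CHX in the presence of T3 gave 7 called genes of 9, where 67.3% of all genes were called (36.3% higher and 31% lower). Thra (-0.88 ± 0.05), Thrb (-0.52 ± 0.12), Rxra (-0.72 ± 0.06) and Hr (-0.86 ± 0.07) were lower in CHX plus T3 than in T3 alone, and Ncoa1 (0.58 ± 0.08), Ncoa2 (0.78 ± 0.10) and Ncor1 (0.26 ± 0.10) were higher. The adjusted p of Ncor1 was 0.0297, and 0.12 without CHX plus T3 replicate 3 and 0.102 without T3 replicate 2. The comparison is across lanes 6 and 5. With lane as a covariate Thrb (adjusted p = 0.0615) and Ncor1 (0.258) were no longer called and the other 5 were. Rxrb, at -0.15 ± 0.07, had an adjusted p of 0.0666, but 0.0241 by DESeq2.

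The summed level of the 12 astrocyte markers moved with CHX as well, at 8407 to 8907 CPM in CHX plus T3 and 13550 to 13670 CPM in T3 alone, and at 8678 to 10340 CPM in CHX and 11740 to 12570 CPM in control. The 10 oligodendrocyte lineage markers, 8 of them tested, summed to 533 to 565 CPM in CHX plus T3 and 873 to 957 in T3, and to 554 to 618 CPM in CHX and 903 to 1018 in control. The 12 microglia markers summed to 33.3 to 38.8 CPM in CHX plus T3 and 72.9 to 81.9 CPM in T3, and to 39.5 to 60.1 CPM in CHX and 56.0 to 72.1 CPM in control, with every 6 h T3 library above every 6 h control. The 10 vascular and meningeal markers, 8 of them tested, summed to 1686 to 1852 CPM in CHX plus T3 and 1842 to 2109 in T3, and to 1409 to 1856 CPM in CHX and 2150 to 2278 in control. The 10 neuron markers, 8 of them tested, summed to 430 to 473 CPM in CHX plus T3 and 500.0 to 560 in T3, and to 442 to 486 CPM in CHX and 486 to 525 in control. The part of these differences in the results above was not tested.

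**Figure D5:**
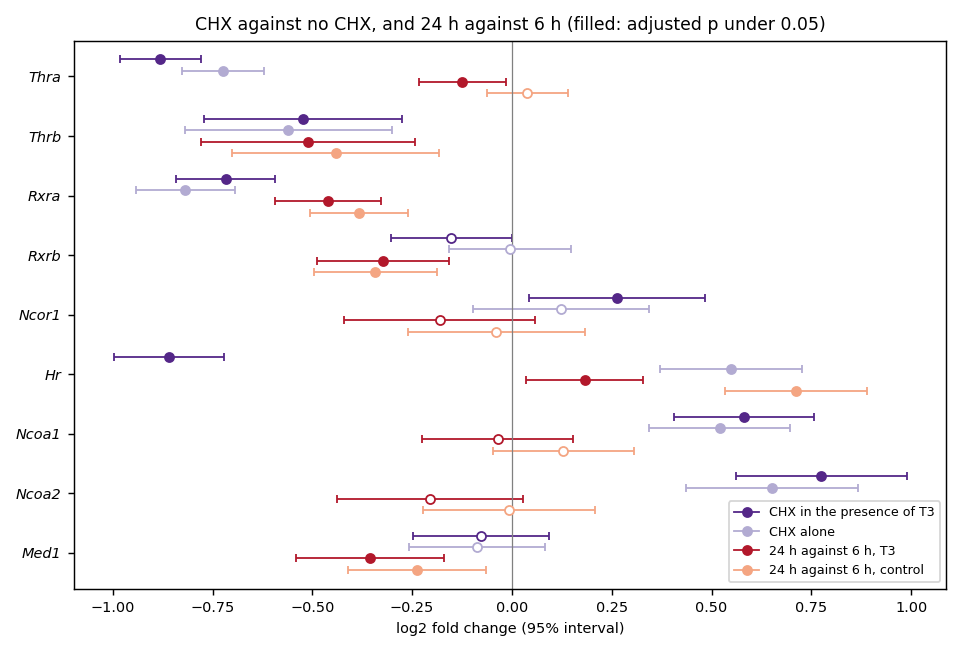
Log2 fold change with 95% intervals for CHX over no CHX, with and without T3, and for 24 h over 6 h, with and without T3; filled points have an adjusted p under 0.05. Thra, Thrb and Rxra lie left of 0 and Ncoa1 and Ncoa2 right of 0 for both CHX comparisons, while Hr is at 0.55 without T3 and -0.86 with it.

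With CHX alone, the gene next to each receptor moved the other way. Nr1d1, which encodes the clock repressor Rev-erb alpha and overlaps the 3′ end of Thra on the other strand, had 734, 734, 710 and 662 CPM in 6 h CHX, against 56.2, 60.1, 63.0 and 63.2 CPM in 6 h control. That was a rise of 11.7-fold (log2 3.55 ± 0.05, adjusted p = 1.52e-24), while Thra fell in the same libraries. Nr1d2, which encodes Rev-erb beta and lies on chromosome 14 downstream of Thrb (18204054 to 18239127, minus strand), rose by 0.68 ± 0.08 (adjusted p = 1.63e-08) while Thrb fell. Neither neighbour was called for T3 at 6 h, at 24 h or with CHX. For T3 with CHX their log2 changes were 0.14 and 0.26. The adjusted p were 0.173 and 0.0834, and 0.0482 and 0.0307 by DESeq2. Over time both were lower at 24 h than at 6 h, as Thrb was. Without T3 Nr1d1 was at -0.287 ± 0.051 and Nr1d2 at -0.389 ± 0.076. With T3 they were at -0.225 ± 0.055 and -0.455 ± 0.082. These time differences cannot be told apart from lane.

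Between 6 h and 24 h of culture without T3, 5 of the 9 genes were called, where 56.6% of all genes were (28.2% higher and 28.4% lower). Rxra (-0.38 ± 0.06), Rxrb (-0.34 ± 0.07), Thrb (-0.44 ± 0.12) and Med1 (-0.24 ± 0.08) were lower in 24 h than in 6 h control, and Hr was higher (0.71 ± 0.08). With T3, 6 of 9 were called beside 57.6% of all genes (29.3% higher and 28.2% lower): Thra (-0.12 ± 0.05), Thrb (-0.51 ± 0.13), Rxra (-0.46 ± 0.06), Rxrb (-0.32 ± 0.08) and Med1 (-0.36 ± 0.09) were lower at 24 h and Hr (0.18 ± 0.07) was higher. The calls of Thra (adjusted p = 0.0429) and Hr (0.028) with T3 came from overlapping groups. That of Thra was lost under 9 of 16 alternatives, among them leaving out 24 h T3 replicate 2 or 3 (0.134 and 0.161) or 6 h T3 replicate 2 or 3 (0.104 and 0.102). That of Hr was lost under 9 and reversed with lane, and leaving out 24 h T3 replicate 2 or 3 (0.142 and 0.053) or 6 h T3 replicate 2, 3 or 4 (0.0764, 0.0523 and 0.0732) was among those 9. With lane as a covariate, which only the CHX libraries on both lanes and the 24 h T3 library on lane 7 inform, Hr alone was called without T3 and Med1 alone with T3. Time cannot be told apart from lane in these libraries.

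The wider pathway was read through 4 lists of 62 further genes. Of all genes tested, T3 called 3.77% at 6 h, 7.09% at 24 h and 1.29% with CHX. None of 10 receptor genes, Rxrg and 9 whose proteins pair with retinoid X receptors, was called for T3 in any of the 3 settings. Among the 12 genes of corepressor complexes, Nrip1, a corepressor recruited with hormone, was higher with T3 at 6 h (0.53 ± 0.11, adjusted p = 0.00531) and at 24 h (0.44 ± 0.12, adjusted p = 0.0206). With CHX 1 of the 12 was called higher, but Nrip1 was not called (0.369 ± 0.105, adjusted p = 0.0904). Of 11 other coactivator genes, Ppargc1a, a coactivator known for mitochondrial genes, was the called gene in each setting: 0.42 ± 0.11 at 6 h (adjusted p = 0.0336), 0.57 ± 0.12 at 24 h (0.00281) and 0.44 ± 0.11 with CHX (0.0361). Of 28 Mediator subunits tested besides Med1, Med27 was called at 24 h (0.32 ± 0.09, adjusted p = 0.0299), and none at 6 h or with CHX. Med27 had 20.4 ± 2.72 CPM in 24 h T3 and 16.4 ± 0.35 in 24 h control (SD). That T3 group includes replicate 1, where genes with short transcripts were high. The part of that library in the Med27 call was not tested. The 24 h groups of Nrip1 and Ppargc1a overlapped. No alternative fit was read for single genes of these lists. How their calls depend on lane or on single libraries was not tested. Med23 was the gene of these lists whose T3 effect differed with CHX (0.38 ± 0.09, adjusted p = 0.0471). Of all genes tested, 1.22% differed there. Neither T3 effect on Med23 was itself called: -0.212 ± 0.067 at 6 h (adjusted p = 0.0789) and 0.165 ± 0.066 with CHX (0.292).

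CHX alone gave called genes in all 4 lists, beside 67.5% of all genes tested (37% higher and 30.6% lower). Mediator subunits were higher in 10 of 28 and lower in 5, led by Med26 (1.57 ± 0.08), Med27 (1.51 ± 0.08), Med7 (1.30 ± 0.08) and Med20 (1.17 ± 0.06). Coactivators were higher in 7 of 11 and lower in 2, with Ppargc1b (2.15 ± 0.21), Ppargc1a (1.78 ± 0.11), the histone acetyltransferase gene Ep300 (1.19 ± 0.12) and Trip4 (0.61 ± 0.07) having the smallest adjusted p. Corepressor genes were higher in 3 of 12, among them Nrip1 (1.07 ± 0.11) and Gps2 (0.83 ± 0.08), and lower in 5, among them Tbl1xr1 (-0.49 ± 0.09) and Sin3a (-0.46 ± 0.06). Pairing receptors were higher in 2 of 10, among them the retinoic acid receptor gene Rarg (0.69 ± 0.06), and lower in 4, among them Nr1h2 (-0.99 ± 0.07), Ppard (-0.70 ± 0.09) and Ppara (-1.38 ± 0.23). The list medians were 0.06, 0.33, -0.10 and -0.26 in that order, beside 0.06 for all genes.

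With T3 present, the lists again held genes called in both directions, beside 67.3% of all genes (36.3% higher and 31% lower). The Mediator genes Med26 (1.58 ± 0.08), Med20 (1.26 ± 0.06), Med7 (1.31 ± 0.07) and Med27 (1.31 ± 0.08) and the coactivator genes Ppargc1a (1.80 ± 0.11), Ppargc1b (2.15 ± 0.20), Ep300 (1.24 ± 0.12) and Trip4 (0.50 ± 0.07) were higher. Gps2 (0.87 ± 0.08), Nrip1 (0.91 ± 0.11) and Rarg (0.70 ± 0.06) were higher too, and Sin3a (-0.39 ± 0.06), Tbl1xr1 (-0.45 ± 0.09), Nr1h2 (-1.06 ± 0.07), Ppard (-0.70 ± 0.09) and Ppara (-1.12 ± 0.23) were lower. Mediator subunits were then higher in 11 of 28 and lower in 4, coactivators higher in 7 of 11 and lower in 2, corepressor genes higher in 3 of 12 and lower in 4, and pairing receptors higher in 2 of 10 and lower in 6. 

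Over time without T3, 56.6% of all genes were called (28.2% higher and 28.4% lower). As for the members, time cannot be told apart from lane in these lists, without or with T3. Mediator subunits were lower at 24 h than at 6 h in 8 of 28 and higher in 2. Med4 (-0.54 ± 0.06), Med15 (-0.33 ± 0.05), Med17 (-0.27 ± 0.05) and Med23 (-0.38 ± 0.07) had the smallest adjusted p. Coactivators were lower in 2 of 11, Kat2b (-0.34 ± 0.08) and Carm1 (-0.35 ± 0.08), and higher in 1, Trip4 (0.51 ± 0.07). Corepressor genes were higher in 3 of 12, namely Hdac3, the deacetylase of the NCoR complex (0.23 ± 0.06), Tbl1xr1 (0.29 ± 0.09) and Hdac1 (0.17 ± 0.07), and lower in 1, Sin3a (-0.46 ± 0.06). Pairing receptors were lower in 5 of 10 and higher in 2; the liver X receptor genes parted, with Nr1h3 at 1.27 ± 0.20 and Nr1h2 at -0.49 ± 0.07, as did the retinoic acid receptor genes Rarb (0.94 ± 0.19) and Rarg (-0.32 ± 0.06).

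Over time with T3, 57.6% of all genes were called (29.3% higher and 28.2% lower). Mediator subunits were higher at 24 h in 8 of 28, among them Med27 (0.57 ± 0.09) and Med16 (0.43 ± 0.08). They were lower in 5, among them Med4 (-0.49 ± 0.06) and Med15 (-0.42 ± 0.05). Coactivators were lower in 5 of 11, among them Carm1 (-0.45 ± 0.09), Kat2b (-0.38 ± 0.08) and Ncoa3 (-0.34 ± 0.12), and higher in 1, Trip4 (0.33 ± 0.07). Hdac3 (0.39 ± 0.06) and Hdac1 (0.38 ± 0.07) were among the higher corepressor genes, and Sin3a (-0.65 ± 0.07) was among the lower. Pairing receptors were higher in 3 of 10, among them Nr1h3 (1.31 ± 0.21) and Rarb (1.20 ± 0.20), and lower in 3, among them Rara (-0.74 ± 0.09) and Nr1h2 (-0.34 ± 0.07). The 24 h T3 group includes replicate 1, where short genes were high and long genes low. The part of that library in these list counts was not tested.

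Genes whose mean log2 level over the 6 groups ran most like that of a member were found among 12864 other protein-coding genes whose mean was 1 CPM or more, by the root mean square of the centred difference. Nearest to Thrb was Por (0.07, where the spread of Thrb itself over the groups was 0.34), then Scml4 (0.11) and Usp25 (0.12). Por had 149 CPM in 24 h T3 and 116 in 24 h control, 147 in 6 h CHX plus T3 and 115 in 6 h CHX, and 238 in 6 h T3 and 154 in 6 h control. Nearest to Thra (own spread 0.37) were Cab39l (0.04), Erlin2 (0.05) and Man2a2 (0.05). No gene ran close to Hr (own spread 1.84): the nearest were Chst8 (0.85), Ky (0.91) and the T3-responsive transcription factor gene Klf9 (1.03), which had 79.6 CPM in 6 h T3 and 22.9 in 6 h control. These are likenesses over 6 group means that share libraries and lanes.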

How the data were processed

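RNA was measured in 23 libraries prepared from 200 ng of RNA each, per the labels, by an unstranded kit, and read as single reads of 50 nt. The deposited files hold raw counts of reads per Ensembl gene. Per the submitters' processing notes, the build was GRCm38 and the tools were TopHat, Bowtie, HTSeq, edgeR, FastQC and bcl2fastq; their versions, the counting mode and the strand setting were not given in the sources used here. Alignments that were not unique (30.7 to 42.3% of all lines per library), ambiguous reads (1.4 to 1.7%) and reads without a feature (3.75 to 5.81%) named no gene and stayed out of library sizes and tests. Those that were not unique made up 30.7 to 32.9% in libraries with CHX and 36.2 to 42.3% in libraries without it. The part of this difference in the CHX comparisons was not tested. The titles gave the groups.

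GENCODE M21 held 36429 of the 38293 identifiers and 127 of 128 listed symbols. edgeR 4.0.16 in R 4.3.3 (filterByExpr with a minimum count of 10, TMM, 1 mean per group over 23 libraries, 17 residual degrees of freedom, quasi-likelihood F test, Benjamini-Hochberg over 16087 genes) gave the tests, called at an adjusted p under 0.05. The SE is the log2 change divided by the root of F, and its 95% interval uses those degrees of freedom. CPM used TMM-scaled library sizes, and levels per length were divided by merged exon length. The biological coefficient of variation was 8.57%. Every pair of replicates differed by more than sampling noise (chi-square per degree of freedom of 1.73 or more). The code was tested on simulated counts. The members and lists were chosen with earlier results of these data known. Named are the 9 members, their neighbours, and per comparison the called genes of a list with the smallest adjusted p (at most 4), plus the 3 genes nearest to Thra, Thrb and Hr; a listed gene that the rule also names is not reported here. Alternatives were DESeq2 1.42.0, RLE factors, no filter, replicate blocks, lane, removal of length and GC trends, fits of the compared groups alone, and leaving out libraries.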

Additional observations from a re-analysis of the deposited data

Results flagged for a closer look

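Single libraries stood apart from the other 3 of their group by Dixon's criterion in 4 of 45 groups tested, and chance flags about 1 group in 20. For 6 h CHX plus T3 replicate 3 these were Ncor1 at 312 CPM (the others 259.5 to 266 CPM), Ncoa2 at 175 CPM (140.3 to 144) and Med1 at 99.8 CPM (79.9 to 82.8), the 3 genes being among those with over 8 kb of exons. For 6 h control replicate 3 it was Ncoa2 at 93.7 CPM (83.2 to 84.6).

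The T3 effect on Hr differed between settings in a test of the difference itself: it was lower with CHX than without (log2 -1.41) and lower at 24 h than at 6 h (log2 -0.53).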

How the results depend on the processing

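Over all alternatives 1448 of 1521 log2 changes of the 9 genes, over 9 comparisons, kept their direction and side of the threshold, or were uncalled in both fits (59 of these changed sign). Calls were lost in 55 and gained in 16, and 2 reversed: Hr, 24 h against 6 h T3, was -0.014 with lane as a covariate (adjusted p = 0.953), and Rxrb with CHX alone was 0.13 without length and GC trends. Hr kept its call for T3 at 6 h, at 24 h and with CHX under every alternative run. The causes of the changes below were not tested.

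Members called for T3 at 24 h numbered 1 in place of 2 with the replicate block by description letter, with lane, in the compared groups alone and without 24 h control replicates 2 and 4 (chosen after seeing the data); with CHX 1 with lane; and for 24 h against 6 h 1 with lane with and without T3, and 3 without those controls. For the T3 effect at 24 h minus 6 h 0 were called in the compared groups alone and without those controls. Leaving out 1 library gave 1 to 2 members for T3 in each of the 3 settings, 6 to 8 for CHX with T3, 4 to 6 for 24 h against 6 h T3, and 0 to 1 for the difference in T3 effect between times.

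Genes called for T3 at 6 h (606) were 1035 without length and GC trends, 1191 without 6 h CHX replicate 4 and 24 h T3 replicate 1, and 349 to 676 with 1 library left out. At 24 h (1140) they were 401 in the compared groups alone, 642 without the 2 controls and 810 to 1486 with 1 left out. With CHX (208) they were 343 by DESeq2, 660 with lane, 363 without trends, 407 in the compared groups alone and 138 to 252 with 1 left out. For the T3 effect with CHX minus without (196) they were 514, 966, 570 and 497 in those 4 settings, 295 without a filter, 381 and 368 with the block by number and by letter, and 30 to 334 with 1 left out. For the effect at 24 h minus 6 h (135) they were 365, 521, 350 and 62, then 213 with the block by letter, 32 without the 2 controls and 69 to 350 with 1 left out. With lane, 24 h against 6 h gave 4414 (control) and 5409 (T3).

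Replicate numbers gave no strong pairing of the samples: correlations of same-numbered deviations ran from -0.285 to 0.131, and by letter from -0.261 to 0.199. Weak pairing is not excluded. For T3 with CHX (0.018 to 0.084) and CHX alone (0.006 to 0.083), 3 of 4 libraries matched their own number best. In each other comparison at most 1 did. With the block by title number Thrb at 24 h had an adjusted p of 0.057, by letter 0.05, and Rxra at 24 h was called (-0.20, adjusted p = 0.0257). RLE scaling moved the median of all genes by at most 0.046 in size.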
